A study of Homo sapiens with 15 samples.

Results

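The 5 libraries that carry replicate number 1 of an RNA-seq series on HT115 cells were compared with the 10 libraries that carry numbers 2 and 3. HT115 is an established human colorectal cancer cell line. The members were taken by their labels alone, 1 replicate 1 library for each of 5 induced proteins, out of 15 libraries in all. The induced protein was V5-tagged wild-type SOX9 (labelled CSOX9), a V5-tagged mutant SOX9 (labelled M228, M303 or M379) or GFP, the control. M303 is a truncated SOX9, while the sources used here do not say what the numbers of M228 and M379 stand for. All 15 libraries shared the line, the medium and induction with 0.5 µg/ml doxycycline for 24 h, and an uninduced group was not analysed here. The series text speaks of duplicates and the labels give triplicates. No label says that a replicate number marks a culture, a day or a preparation, so the number is used here only as a label. The p-values therefore rest on the spread among the 15 libraries alone, part of which may be technical, and a difference between replicate numbers cannot be told apart from any step that the libraries of 1 number shared.

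Several gene programmes are known to vary with the state of a cultured epithelial line. The endoplasmic reticulum chaperones are induced by the unfolded protein response, which senses misfolded proteins in the secretory pathway, and the cytosolic chaperones by heat shock factor. Cholesterol synthesis genes are switched on by SREBP2 when membrane sterol is low, and interferon-stimulated genes by the STAT and IRF factors. In the intestine, crypt cells divide under WNT signalling, and their progeny become absorptive enterocytes or mucus-secreting goblet cells under CDX2 and related factors.

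Total counts were 19781935 reads in CSOX9 replicate 1, 15105058 in M228, 31704249 in M303, 14381665 in M379 and 3054755 in GFP, against 7291596 to 26591603 reads in replicates 2 and 3. A count of 0 allows a level of up to 3 reads, which is 0.0946 CPM in M303 replicate 1 and 0.982 CPM in GFP replicate 1, for counting error only. GFP replicate 2 stood apart from all other libraries. Ribosomal protein genes took 4.85% of its counts. Their share was 2.81% to 3.36% in replicate 1 and 2.52% to 3.03% in the other replicate 2 and 3 libraries. Counts with and without it are therefore given below. No pair of libraries of 1 construct agreed within sampling noise. All 12 epithelial markers were above 1 CPM in at least 1 of the 15 libraries, and their sum was 13072 to 17103 CPM in replicate 1, against 17701 to 24869 CPM in replicates 2 and 3. In the gene test described below, 3 of the 12 fell (25%), the abundant keratins KRT8, KRT18 and KRT19, and 1 rose (8.33%), CDX2. Of all tested genes 7.52% fell and 7.93% rose. The 12 markers had 6 positive and 6 negative log2 differences, with a median of -0.01. Of 10 fibroblast markers 7 stayed under 1 CPM in all 15 libraries and PDGFRA was at 0, of 10 endothelial markers 7 stayed under 1 CPM and CDH5 and EMCN were at 0, and of 8 neural markers 5 stayed under 1 CPM and STMN2 and ELAVL4 were at 0. The fibroblast sums were 3.93 to 6.62 CPM in replicate 1, against 3.56 to 5.61 CPM in replicates 2 and 3. The endothelial sums were 6.49 to 8.89 CPM in replicate 1, against 6.01 to 8.35 CPM in replicates 2 and 3. Neural marker sums were 136 to 164 CPM in replicate 1, against 67.5 to 135 CPM in replicates 2 and 3, and no neural marker passed the test. Their part in the results was not tested. Of 13 leukocyte and blood markers 9 stayed under 1 CPM and CD3E, CD2 and TYROBP were at 0, while LYZ, which Paneth cells also make, gave nearly all of their sum: without LYZ it was 2.02 to 3.27 CPM in replicate 1, against 1.47 to 4.50 CPM in replicates 2 and 3.

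Replicate 1 differed from replicates 2 and 3 in 2496 of 16160 tested genes, which is 15.4% (edgeR quasi-likelihood test with construct as block, Benjamini-Hochberg adjusted p under 0.05). Of these, 1281 genes (7.93%) were higher in replicate 1 and 1215 (7.52%) lower. The differences were mostly modest: the median size among called genes was 0.47 on the log2 scale, 1644 called genes differed by less than 1.5-fold, and 180 were over 2-fold higher and 56 over 2-fold lower. Replicate 1 lay above both other libraries of its construct in all 5 constructs for 866 of the genes called higher, beside 7.82% of all tested genes, and below both in all 5 for 944 of those called lower, beside 8.95%. Separation of the 5 libraries from all 10 others, whatever the construct, was seen in 328 genes called higher and 431 called lower, beside 5.41% of all tested genes. The number called was 890 without M303 replicate 1, 1127 without M228 replicate 1, 1401 without GFP replicate 1, 1420 without M379 replicate 1 and 5359 without GFP replicate 2. Against replicate 2 alone it was 261 and against replicate 3 alone 5453.

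Fewer genes were called between replicates 2 and 3. In the same test they differed in 10 genes (0.0619%), 8 of them higher in replicate 2 and 2 lower, with 2243 genes at an unadjusted p under 0.05. DESeq2 called 132 and edgeR with no filter on low counts 603. These 10 were ARTN, PHGR1, CDHR1, NDRG1, AKR1C3, EDN1, H1-2 and ENSG00000253308 on the higher side and PEG10 and CR2 on the lower. In that fit, with each of the 3 numbers given its own level, replicate 1 differed from replicate 2 in 2040 genes and from replicate 3 in 2162. After construct means were subtracted, the first principal component held 51.9% of the variance and mainly parted GFP replicate 2 from the rest, and the second held 24.6% and placed all 5 replicate 1 libraries above 0, with GFP replicate 2 the only other library there. On the first component too, replicate 1 was the highest library of each construct, from 3.55 in CSOX9 to 40.0 in GFP. The spread of log2 differences between 2 libraries of 1 construct was 0.25 to 0.39 (SD over genes with a mean log2 CPM of at least 1) for pairs with replicate 1, against 0.21 to 0.30 for replicate 2 with 3, in the constructs other than GFP. In GFP it was 0.46 and 0.86 for the pairs with replicate 1, against 0.76 for replicate 2 with 3, so there replicates 1 and 3 were the closest pair.

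**Figure D1:**
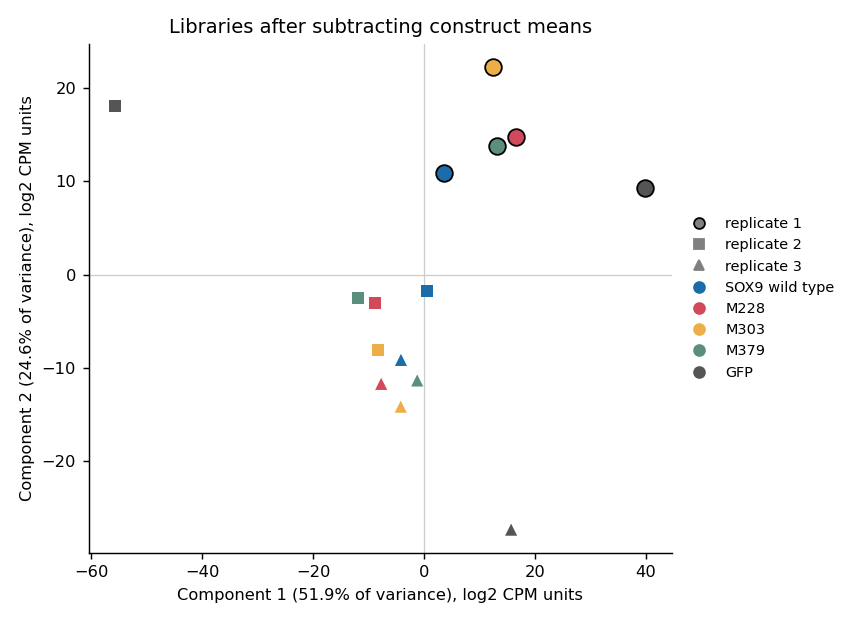
First and second principal component of log2 CPM over genes with a mean log2 CPM of at least 1 after the mean of each construct was subtracted, 1 point per library, with circles for replicate 1, squares for replicate 2 and triangles for replicate 3, and colour for the construct. The 5 replicate 1 libraries sit between 9.25 and 22.3 on the second component, and GFP replicate 2 sits alone at -55.7 on the first.

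The direction of the difference was checked in constructs that a call had not used. Genes were called from 4 constructs, and the replicate 1 library of the construct left out was compared with the mean of its replicates 2 and 3. With M303 left out, 627 genes were called, and 99.2% of those called higher were above and 98.0% of those called lower were below in M303, beside 50.6% and 49.4% of all tested genes. For M228 left out these shares were 99.3% and 97.9% of 950 called genes, and for M379 left out 98.7% and 98.1% of 1108 called genes. For CSOX9 left out they were 82.2% and 84.2% of 2217 called genes, and for GFP left out 86.5% and 87.5% of 4631 called genes. The median difference of the genes called higher was 0.26 in CSOX9, 0.64 in M228, 0.85 in M303, 0.54 in M379 and 0.54 in GFP on the log2 scale. Each of these medians is over its own set of called genes, so they are not ranked. A test of whether the difference varied between constructs called no gene (0% of 16160, edgeR, 193 at an unadjusted p under 0.05), DESeq2's called 4, and edgeR called 19 with no filter on low counts and 22 with GFP left out. The edgeR test took its spread from replicate 2 against replicate 3 within constructs, with 5 residual degrees of freedom. With GFP left out, 919 genes had an unadjusted edgeR p under 0.05. The lack of calls therefore does not show that the difference was equal in the 5 constructs.

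**Figure D2:**
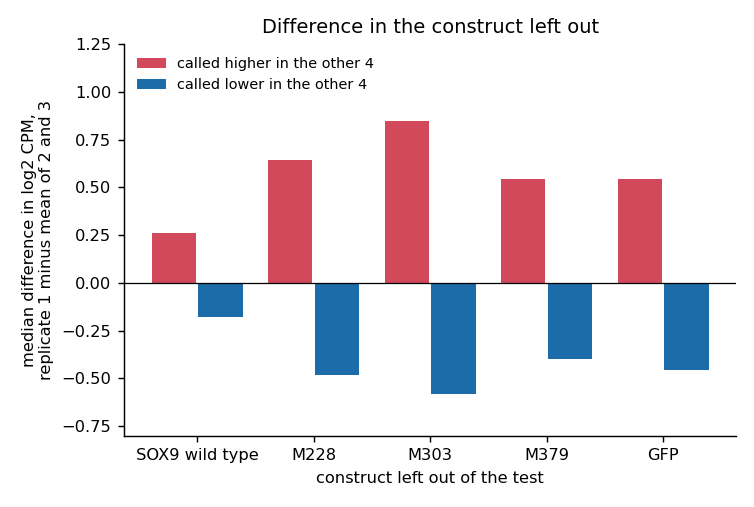
Median difference in log2 CPM (replicate 1 minus the mean of replicates 2 and 3) in the construct left out, for genes called higher (red) and lower (blue) in the other 4 constructs. Each construct has a positive red and a negative blue bar, from 0.26 and -0.18 in CSOX9 to 0.85 and -0.58 in M303.

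SOX9 (ENSG00000125398, chromosome 17, 72121020 to 72126416, plus strand, GRCh38), a transcription factor of crypt progenitor cells and the induced protein in 4 of the 5 constructs, served as a check of the labels. It stood at 242.9 CPM in CSOX9, 1899.9 in M228, 2949 in M303, 2034 in M379 and 97.6 in GFP in replicate 1. In replicates 2 and 3 it was 210.2 and 186 CPM in CSOX9, 2032 and 2383 in M228, 3038 and 3039 in M303, 2329 and 2282 in M379, and 100.8 and 158 in GFP. Every library of the 3 mutants was above every CSOX9 library, and every CSOX9 library above every GFP library. The counts do not separate the cell's own SOX9 from the introduced one. Replicate 1 was below both other libraries in 4 constructs, and the difference of -0.10 ± 0.11 on the log2 scale was not past the threshold (edgeR adjusted p = 0.582). Of the other markers of the line's state, MKI67, a marker of cycling cells (0.15 ± 0.15, edgeR adjusted p = 0.564), LGR5, a crypt stem cell receptor (0.15 ± 0.18, edgeR adjusted p = 0.604), KRT20, a keratin of mature colonocytes (-0.18 ± 0.10, edgeR adjusted p = 0.269), and MYC, a growth-promoting transcription factor (0.09 ± 0.07, edgeR adjusted p = 0.383), were not past the threshold either. MYC was called higher in replicate 1 when only library totals were used for scaling, and against replicate 3 alone.

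Most unfolded protein response genes were lower. Of 20 members tested of 20 listed, 14 fell and none rose, and the median log2 difference was -0.51, beside 0.00468 over all tested genes. List counts here and below are to be read beside the 7.93% of all tested genes called higher and the 7.52% called lower. HSPA5 (ENSG00000044574, chromosome 9, 125234853 to 125241343, minus strand), which encodes BiP, the main chaperone of the endoplasmic reticulum, was 499 CPM in CSOX9, 457 in M228, 395 in M303, 460.0 in M379 and 405 in GFP in replicate 1. In the 10 libraries of replicates 2 and 3 it had a lowest value of 624, a median of 846 and a highest of 1014 CPM. The groups did not overlap, and the log2 difference, given here and below with its SE, was -0.92 ± 0.10 (edgeR adjusted p = 0.00019).

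HSP90B1, the reticulum's HSP90, was 958 CPM in CSOX9, 897 in M228, 752 in M303, 867 in M379 and 895 in GFP in replicate 1, against a lowest value of 1197, a median of 1355 and a highest of 1929.5 CPM in replicates 2 and 3. Here too the replicate 1 libraries were all lower, with a difference of -0.67 ± 0.09 (edgeR adjusted p = 0.00061). MANF (ENSG00000145050, chromosome 3, 51385291 to 51389397, plus strand), a small secreted protein induced by reticulum stress, was 63.7 CPM in CSOX9, 61.8 in M228, 51.8 in M303, 63.6 in M379 and 47.1 in GFP in replicate 1, against a lowest value of 80.6, a median of 119 and a highest of 199 CPM in replicates 2 and 3, again with no overlap and a difference of -1.04 ± 0.16 (edgeR adjusted p = 0.000919). The co-chaperone DNAJB11 fell by 0.71, HYOU1, a reticulum HSP70, by 0.64 and the disulphide isomerase PDIA6 by 0.52, although PDIA6 overlaps an opposite-strand gene over 25% of its exon bases and its reads cannot be assigned by strand. With each library left out in turn 12 to 16 members were lower, and 14 of the 20 were below both other libraries in all 5 constructs.

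The cytosolic chaperones moved the same way. Of 14 heat shock genes tested of 15 listed, 11 fell and none rose, with a median of -0.45. HSPA8, the constitutive HSP70, was 2829 CPM in CSOX9, 3026 in M228, 2697 in M303, 3037 in M379 and 3062 in GFP in replicate 1, against a lowest value of 3615, a median of 4206 and a highest of 4517 CPM in replicates 2 and 3. HSP90AA1, the inducible HSP90, was 3133 CPM in CSOX9, 3440.2 in M228, 2930.4 in M303, 3032 in M379 and 3475 in GFP in replicate 1, against a lowest value of 3868, a median of 4260.4 and a highest of 4797 CPM in replicates 2 and 3. Neither gene's groups overlapped, and the differences were -0.49 ± 0.07 (edgeR adjusted p = 0.00061) for HSPA8 and -0.43 ± 0.06 (edgeR adjusted p = 0.000799) for HSP90AA1. HSP90AB1 fell by 0.45, the nucleotide exchange factor HSPH1 by 0.55 and the co-chaperone DNAJA1 by 0.49. HSPA1A, which fell too, has a near-identical copy that can share its reads. Without M303 replicate 1 the count was 7 of 14.

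Promoter windows of 300 bases (250 before and 50 from the gene start, RefSeq, GRCh38.p14) were searched on both strands for the classical element of each programme. The endoplasmic reticulum stress element, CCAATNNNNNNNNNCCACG, was in 22 of 27305 windows (0.0806%) and in 6 of the 19 unfolded protein response members that have a window, among them 4 of 13 that fell. The heat shock element, GAANNTTCNNGAA, was in 0.487% of windows and in 3 of 14 heat shock members (HSPA8, DNAJA1 and CHORDC1), all of which fell. HSPA5 and CRELD2, a calcium-binding protein of the reticulum, are shown because both fell by over 0.9 on the log2 scale and carry the element in opposite orientation. HSPA5 (chr9:125241294-125241593, minus strand) has its match starting 66 bases before the gene start, and CRELD2 (chr22:49918384-49918683, plus strand) has one on the opposite strand starting at 80 bases before it. Capitals mark the match.
HSPA5: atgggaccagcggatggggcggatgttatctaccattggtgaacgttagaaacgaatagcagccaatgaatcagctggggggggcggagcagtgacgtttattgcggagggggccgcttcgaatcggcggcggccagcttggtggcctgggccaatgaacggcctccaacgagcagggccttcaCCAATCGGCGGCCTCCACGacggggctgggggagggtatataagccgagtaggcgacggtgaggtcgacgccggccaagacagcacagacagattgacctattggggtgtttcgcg
CRELD2: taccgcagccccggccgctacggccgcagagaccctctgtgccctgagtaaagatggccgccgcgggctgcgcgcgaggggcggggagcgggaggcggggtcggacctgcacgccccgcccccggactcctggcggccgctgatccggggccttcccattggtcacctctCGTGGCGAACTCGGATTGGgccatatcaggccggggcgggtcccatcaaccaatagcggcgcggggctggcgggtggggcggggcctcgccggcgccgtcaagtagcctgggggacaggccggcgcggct
CRELD2, named here for its match after its values were seen, fell by 0.96 (edgeR adjusted p = 0.00061). A match is a description of the sequence and not evidence of a bound factor.

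About as many proteasome and ribosome biogenesis genes fell as were not called. Of 25 proteasome subunits tested of 25 listed, 13 fell and none rose, all 25 had a negative difference, and the median was -0.30. PSMC4, an ATPase subunit, was 104 to 125 CPM in replicate 1, against 133 to 209 CPM in replicates 2 and 3 (-0.51 ± 0.09, edgeR adjusted p = 0.00209). PSMD2, a scaffold of the regulatory particle, was 316 to 408 CPM in replicate 1, against 430.5 to 525 CPM in replicates 2 and 3 (-0.39 ± 0.07, edgeR adjusted p = 0.00209). Of 22 ribosome biogenesis factors tested of 22 listed, 12 fell and none rose, with a median of -0.27. RRP9, a component of the U3 particle, was 73.2 to 88.9 CPM in replicate 1, against 94.7 to 154 CPM in replicates 2 and 3, and RRP12, which serves export of ribosomal subunits, was 99.8 to 118 CPM in replicate 1, against 129.9 to 179.9 CPM in replicates 2 and 3. Neither range overlapped, and RRP9 fell by 0.59 and RRP12 by 0.51. The proteasome count was 5 without GFP replicate 1, 5 without M228 replicate 1, 4 without M303 replicate 1, 7 without M379 replicate 1 and 20 without GFP replicate 2. The ribosome biogenesis count was 6, 5, 6 and 7 without the replicate 1 library of GFP, M228, M303 and M379 in turn. Against replicate 2 alone 0 of 25 proteasome genes and 1 of 22 ribosome biogenesis genes were called.

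A further list held MYC and genes of polyamine and nucleotide synthesis, which MYC is known to induce. Of its 12 tested members of 12 listed, 7 fell and none rose, with a median of -0.25. MYC itself, a member of that list, was not called. It was 238 to 281 CPM in replicate 1, against 229.6 to 282 CPM in replicates 2 and 3. ODC1, the first enzyme of polyamine synthesis, was 222 CPM in CSOX9, 207 in M228, 179 in M303, 232 in M379 and 220.2 in GFP in replicate 1, against a lowest value of 258, a median of 352 and a highest of 391 CPM in replicates 2 and 3. No replicate 1 library reached the lowest of the others, and the difference was -0.70 ± 0.09 (edgeR adjusted p = 0.000366). SRM, spermidine synthase, fell by 0.75 and CTPS1, CTP synthase, by 0.55. This count was 3, 3, 3 and 4 without the replicate 1 library of GFP, M228, M303 and M379 in turn. The 40 cytosolic ribosomal protein genes had no member called in either direction, and neither had the 32 nuclear respiratory chain genes. Without GFP replicate 2, 3 ribosomal protein genes were higher and 2 lower, and 2 respiratory chain genes were higher. The median differences of these 2 lists were -0.10 and -0.08 and turned to 0.00320 and 0.0218 when only library totals were used for scaling.

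In glycolysis 6 of 17 tested members of 17 listed fell and none rose, with a median of -0.23, while scaling by library totals alone gave 4 lower and 2 higher. SLC2A1 (ENSG00000117394, chromosome 1, 42925353 to 42958893, minus strand), the glucose transporter GLUT1, had the largest difference of them. It was 78.4 CPM in CSOX9, 96.9 in M228, 62.8 in M303, 87.1 in M379 and 58.4 in GFP in replicate 1, against a lowest value of 122, a median of 159 and a highest of 200.2 CPM in replicates 2 and 3. All 5 replicate 1 libraries were below all 10 others (-1.04 ± 0.11, edgeR adjusted p = 0.00018). PKM, pyruvate kinase, fell by 0.46 and LDHA, lactate dehydrogenase A, by 0.33. The glycolysis count was 3 without M228 replicate 1, 3 without M303 replicate 1, and 11 lower with 2 higher without GFP replicate 2. In the list of genes that hypoxia is known to induce, 6 of 18 tested members of 19 listed rose and 1 fell. NDRG1, a stress-responsive differentiation gene, was 80.2 to 121 CPM in replicate 1, against 35.5 to 81.5 CPM in replicates 2 and 3 (0.89 ± 0.14, edgeR adjusted p = 0.000999), and PFKFB4, which makes a regulator of glycolysis, was 7.18 to 11.7 CPM in replicate 1, against 3.67 to 6.88 CPM in replicates 2 and 3 (0.74 ± 0.10, edgeR adjusted p = 0.000567). NDRG1 was also among the 10 genes that differed between replicates 2 and 3. DDIT4, an inhibitor of mTORC1, rose by 0.76, with 41% of its exon bases overlapping an opposite-strand gene.

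Of the 13 genes of the mitochondrial genome, 9 fell and none rose, with a median of -0.48. Against replicate 2 alone 1 of 13 was called, and with library totals alone 5. MT-ND1, a subunit of complex I, was 1946 CPM in CSOX9, 2116 in M228, 1563 in M303, 1976 in M379 and 1067 in GFP in replicate 1, against a lowest value of 2530.1, a median of 3293 and a highest of 3612 CPM in replicates 2 and 3, with no overlap (-0.89 ± 0.14, edgeR adjusted p = 0.00115). The share of all counts in mitochondrial genome genes was 4.94% in CSOX9, 5.86% in M228, 4.65% in M303, 5.19% in M379 and 3.35% in GFP for replicate 1. It was 5.16% to 7.62% in replicates 2 and 3, with a median of 6.37%. Replicate 1 was below both others in 4 of 5 constructs, by 1.55 percentage points on average (exact permutation within constructs, two-sided p = 0.0123, adjusted over 9 library measures p = 0.0278). The difference was 1.07 points with GFP left out (exact permutation p = 0.0617). The count of 9 genes was 4, 5, 3, 3, 5 and 5 without CSOX9 replicate 1, CSOX9 replicate 3, GFP replicate 1, M303 replicate 1, M303 replicate 2 and M379 replicate 2 in turn. Copies of mitochondrial sequence in the nuclear genome make the gene assignment of such reads uncertain.

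In DNA replication 4 of 24 tested members, which is 16.7%, fell and none rose, beside the 7.52% of all tested genes called lower. CDC6, which loads the replicative helicase, fell by 0.55, CDC45, a helicase subunit, by 0.33, CCNE1, cyclin E1, by 0.44 and the flap nuclease FEN1 by 0.39. That count was 7 without CSOX9 replicate 2, 11 without GFP replicate 2 and 1 without the replicate 1 library of GFP, M228 or M303. None of 22 mitosis genes was called in either direction, while with 1 library left out at a time 0 to 7 were higher and 0 to 1 lower. Of 13 tested replication-dependent histone genes, H2AC6 rose by 0.86 and H2BC5 by 0.45, and histone mRNAs, which mostly lack a poly(A) tail, took 0.00684% to 0.00802% of counts in replicate 1, against 0.00402% to 0.00734% in replicates 2 and 3. This share was above both others in all 5 constructs (exact permutation within constructs, two-sided p = 0.0123, adjusted over 9 library measures p = 0.0278).

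**Figure D3:**
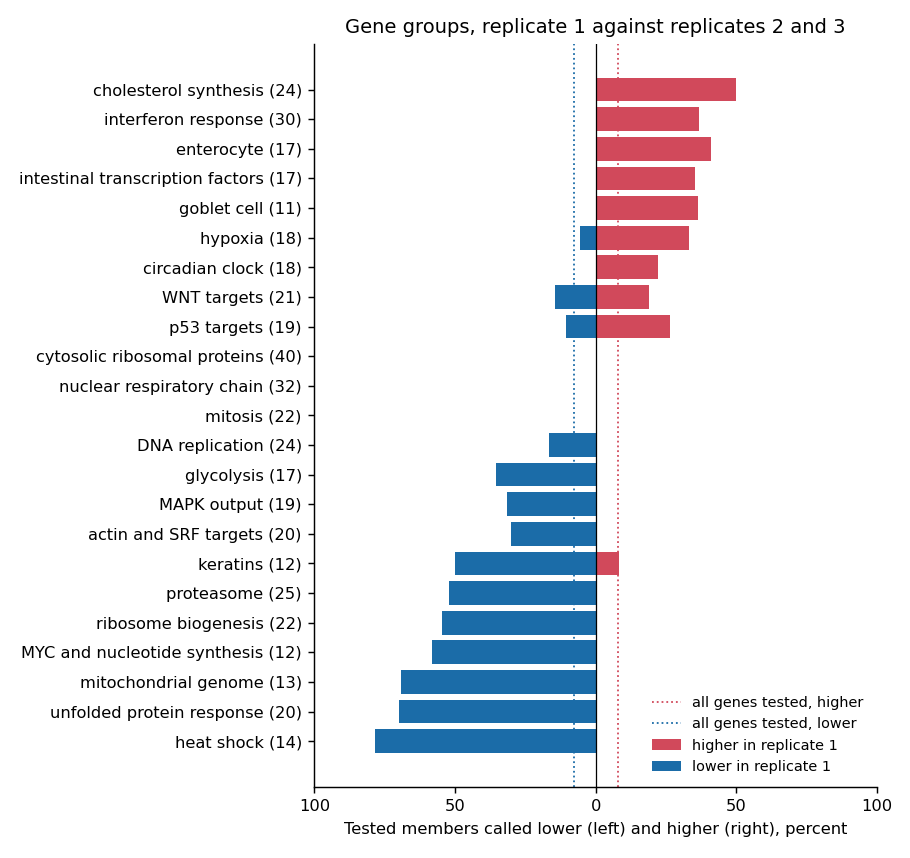
Percent of tested members called higher (red, right) and lower (blue, left) in replicate 1 for 23 gene groups, with the number tested in brackets. Dotted lines mark the 7.93% higher and 7.52% lower of all tested genes. Heat shock (11 of 14) and the unfolded protein response (14 of 20) reach farthest left, and cholesterol synthesis (12 of 24) farthest right.

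Several keratins and actin genes were lower. Of 12 keratins tested of 16 listed, 6 fell and 1 rose, with a median of -0.58. KRT8, with its partner KRT18 the main simple epithelial keratin, was 6075 CPM in CSOX9, 7231 in M228, 6029 in M303, 6049 in M379 and 4870.4 in GFP in replicate 1, against a lowest value of 8427, a median of 9229.7 and a highest of 12648 CPM in replicates 2 and 3. KRT18 was 2447 to 3924 CPM in replicate 1, against 4564 to 8546 CPM in replicates 2 and 3. Both had every replicate 1 library below every other, with differences of -0.67 ± 0.10 (edgeR adjusted p = 0.00103) for KRT8 and -0.77 ± 0.14 (edgeR adjusted p = 0.00253) for KRT18. KRT80 fell by 1.07. KRT17, a keratin of stressed and basal epithelium, fell by 2.45 ± 0.64 but was low, at 0.0896 to 1.26 CPM in replicate 1, against 0.474 to 6.47 CPM in replicates 2 and 3, with the groups overlapping. Keratin reads can be shared with processed copies elsewhere in the genome. The keratin count was 3 without M228 replicate 1 and 3 without M379 replicate 1.

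Of 20 actin and SRF target genes tested of 22 listed, 6 fell and none rose. ACTB, cytoplasmic actin, was 6262 CPM in CSOX9, 5687 in M228, 6086 in M303, 6769.8 in M379 and 5023 in GFP in replicate 1, against a lowest value of 8412, a median of 9616 and a highest of 12333 CPM in replicates 2 and 3, with no overlap (-0.71 ± 0.10, edgeR adjusted p = 0.000792). FLNA, an actin crosslinker, fell by 0.89, the focal adhesion protein ZYX by 0.44 and FHL2 by 0.50. Of 19 genes of MAPK output tested of 20 listed, 6 fell and none rose. FOSL1 (ENSG00000175592, chromosome 11, 65892049 to 65900573, minus strand), an AP-1 subunit induced by ERK, was 25.1 CPM in CSOX9, 30.8 in M228, 22.8 in M303, 29.5 in M379 and 17.6 in GFP in replicate 1, against a lowest value of 40.5, a median of 55.4 and a highest of 73.3 CPM in replicates 2 and 3. All 5 replicate 1 libraries were below all 10 others (-1.14 ± 0.10, edgeR adjusted p = 9.19e-05). The receptor EPHA2 fell by 0.60 and the phosphatase DUSP4 by 0.57. The MAPK count was 3 of 20 members tested in those fits without the replicate 1 library of GFP, M228, M303 or M379, or without M379 replicate 3.

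LBH (ENSG00000213626, chromosome 2, 30231534 to 30323730, plus strand), a transcriptional cofactor, had the largest fall of all named genes. Its values were 3.11 CPM in CSOX9, 2.05 in M228, 0.657 in M303, 0.872 in M379 and 0.304 in GFP in replicate 1, against a lowest value of 4.87, a median of 8.76 and a highest of 18.1 CPM in replicates 2 and 3. The groups did not overlap, and the difference was -2.57 ± 0.36 (edgeR adjusted p = 0.000612). GFP replicate 1 held the lowest value, at 1 read, and CSOX9 the smallest difference, at -0.71. TNC, the matrix protein tenascin C, was 9.68 CPM in CSOX9, 3.14 in M228, 1.64 in M303, 4.09 in M379 and 2.43 in GFP in replicate 1, against a lowest value of 6.56, a median of 12.6 and a highest of 19.6 CPM in replicates 2 and 3, overlapping only through CSOX9 and GFP replicate 2 (-1.79 ± 0.25, edgeR adjusted p = 0.00061). TM4SF1, a tetraspanin-like membrane protein, was 106 CPM in CSOX9, 74.9 in M228, 60.3 in M303, 78.0 in M379 and 45.9 in GFP in replicate 1, against a lowest value of 136, a median of 173 and a highest of 236 CPM in replicates 2 and 3, with no overlap (-1.32 ± 0.18, edgeR adjusted p = 0.000454). The cytokine CLCF1 fell by 1.35, the glycerol phosphate dehydrogenase GPD1 by 1.33, the myosin MYH15 by 1.31, the collagen COL16A1 by 1.11, SMOC1 by 1.08, the G protein regulator RGS16 by 1.08 and the kinase PLK2 by 1.04. RAET1L, a ligand of the NKG2D receptor, fell by 1.41. In all of these genes the replicate 1 library was below both others in 5 of 5 constructs, as the choice of genes required.

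**Figure D4:**
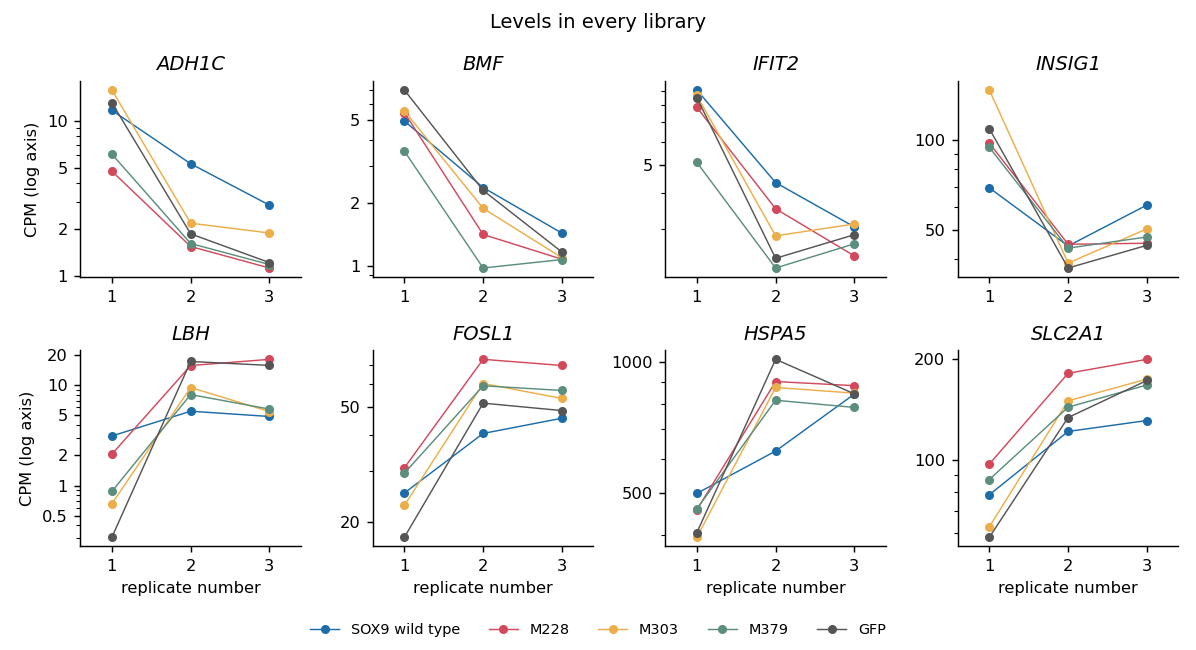
CPM on a log axis by replicate number for 4 genes higher (top row) and 4 lower (bottom row) in replicate 1, 1 point per library, with lines joining the libraries of 1 construct and no order implied between numbers. In BMF, IFIT2, INSIG1, LBH, FOSL1, HSPA5 and SLC2A1 the 5 replicate 1 points lie outside the range of the 10 others, and in ADH1C the groups overlap across constructs while replicate 1 is highest in each.

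Markers of foetal and regenerating epithelium fell in 5 of 15 tested members of 18 listed and rose in none. ANXA1, an annexin, fell by 0.42, ANXA10 by 1.00, ANXA3 by 0.32, and CLU, clusterin, by 0.52, beside KRT17 above. CEACAM6, an adhesion molecule of colonic epithelium, fell by 0.85 (edgeR adjusted p = 0.000187) at 129 to 204 CPM in replicate 1, against 183 to 367 CPM in replicates 2 and 3. It is on the CEACAM family list, not the foetal list, and was the only call among 4 tested members of 10 listed. The median of that family was 0.09, with 2 members positive and 2 negative. MMP7, a matrix protease, was 84.4 to 166 CPM in replicate 1, against 161 to 261 CPM in replicates 2 and 3, a fall of 0.74. The count in the foetal list was 3 without GFP replicate 1, 2 without M228 replicate 1 and 2 without M303 replicate 1. In the aryl hydrocarbon response 3 of 8 tested members of 9 listed fell, UGT1A6, a glucuronidation enzyme, by 0.95, the aldehyde dehydrogenase ALDH3A1 by 0.73 and the amino acid transporter SLC7A5 by 0.51. UGT1A6 shares exon bases with other UGT1A genes, so its reads may be split among them. That count was 5 without GFP replicate 2. Of 7 metallothioneins tested of 9 listed, MT2A fell by 0.83 and MT1G by 1.13, and these near-identical genes can share reads.

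Cholesterol synthesis genes were called in 1 direction. Of 24 members tested of 24 listed, 12 rose and none fell, with a median of 0.37. INSIG1 (ENSG00000186480, chromosome 7, 155297776 to 155310235, plus strand), a sterol sensor and itself an SREBP target, was 69.4 CPM in CSOX9, 98.0 in M228, 148 in M303, 94.9 in M379 and 109 in GFP in replicate 1, against a lowest value of 37.4, a median of 44.7 and a highest of 60.8 CPM in replicates 2 and 3. All 5 replicate 1 libraries were above all 10 others, with a difference of 1.17 ± 0.14 (edgeR adjusted p = 0.000307). SREBF2, which encodes SREBP2, was 243.5 CPM in CSOX9, 202 in M228, 270.0 in M303, 240.1 in M379 and 232 in GFP in replicate 1, against a lowest value of 128, a median of 165 and a highest of 178 CPM in replicates 2 and 3, also without overlap (0.58 ± 0.07, edgeR adjusted p = 0.000305).

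Of the enzymes, MSMO1, a sterol methyl oxidase, was 83.6 to 97.1 CPM in replicate 1, against 47.8 to 73.3 CPM in replicates 2 and 3 (0.60 ± 0.09, edgeR adjusted p = 0.00103). IDI1, isopentenyl diphosphate isomerase, rose by 0.61 and FDFT1, squalene synthase, by 0.44. The count was 7 without M228 replicate 1, 5 without M303 replicate 1 and 17 without GFP replicate 2. The median by construct was 0.20 in CSOX9, 0.23 in M228, 0.40 in M303, 0.29 in M379 and 0.40 in GFP. The sterol regulatory element, TCACNCCAC, was in 1.15% of all windows and in 1 of 18 members with a window, SREBF2.

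In fatty acid synthesis 4 of 11 tested members of 12 listed rose and none fell. FADS1, a fatty acid desaturase, rose by 0.56, ACSS2, which makes acetyl-CoA from acetate, by 0.55, and SREBF1 by 0.44. SCD, stearoyl-CoA desaturase, was 66.3 CPM in CSOX9, 214 in M228, 556 in M303, 199.9 in M379 and 189 in GFP in replicate 1, against a lowest value of 57.7, a median of 115 and a highest of 148 CPM in replicates 2 and 3. M303 replicate 1 was the highest of all 15 libraries and CSOX9 replicate 1 was below both others of its construct, and the difference was 0.96 ± 0.26 (edgeR adjusted p = 0.0252). The fatty acid synthesis count was 2 without M303 replicate 1. In lipid droplet and fatty acid oxidation genes 4 of 11 tested members rose. PDK4, a kinase that limits glucose oxidation, was 20.7 CPM in CSOX9, 14 in M228, 13.1 in M303, 8.99 in M379 and 11.6 in GFP in replicate 1, against a lowest value of 3.75, a median of 5.95 and a highest of 10.3 CPM in replicates 2 and 3 (1.15 ± 0.14, edgeR adjusted p = 0.000305), higher within each construct and overlapping across them. ACSL5, an acyl-CoA synthetase, rose too. FABP1, a fatty acid-binding protein, was called higher but lost its call in 17 of 34 settings. In CSOX9 its replicate 1 library, at 1.31 CPM, was below both others, at 3.32 and 1.72 CPM. Its log2 difference ran from -0.81 in CSOX9 to 2.32 in M303. The lipid droplet and fatty acid oxidation count was 2 without CSOX9 replicate 3, M228 replicate 3, M303 replicate 3 or the replicate 1 library of GFP, M228, M303 or M379.

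Interferon-stimulated genes rose in 11 of 30 tested members of 34 listed and fell in none, with a median of 0.23. MX1 (ENSG00000157601, chromosome 21, 41420304 to 41459214, plus strand), an antiviral GTPase, was 14 CPM in CSOX9, 15.1 in M228, 19.4 in M303, 15.2 in M379 and 18.2 in GFP in replicate 1, against a lowest value of 6.55, a median of 8.81 and a highest of 10.6 CPM in replicates 2 and 3. IFIT2 (ENSG00000119922, chromosome 10, 89283694 to 89309271, plus strand), an interferon-induced RNA-binding protein, was 9.05 CPM in CSOX9, 7.88 in M228, 8.66 in M303, 5.10 in M379 and 8.52 in GFP in replicate 1, against a lowest value of 2.21, a median of 2.86 and a highest of 4.34 CPM in replicates 2 and 3. In both genes all replicate 1 libraries were above all others, with differences of 0.92 ± 0.09 (edgeR adjusted p = 9.39e-05) for MX1 and 1.39 ± 0.13 (edgeR adjusted p = 9.19e-05) for IFIT2. OAS2, which makes oligoadenylate, was low throughout, at 1.54 to 3.04 CPM in replicate 1, against 0.0852 to 1.04 CPM in replicates 2 and 3, again with no overlap (2.08 ± 0.30, edgeR adjusted p = 0.000688). IFIT1 rose by 1.53 and IFIT3 by 1.08.

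The count was 7 without M303 replicate 1 and 19 with 1 lower without GFP replicate 2. The 15 antigen processing genes, many of them also known interferon targets, had none called in either direction, and without GFP replicate 2 had 10 higher and 1 lower, while scaling by library totals alone gave 6 higher. The interferon-stimulated response element, GAAANNGAAA, was in 996 of 27305 windows (3.65%), in 15 of the 24 members that have a window and in 7 of the 8 among them that rose (MX1, IFIT1, IFIT3, DDX60, SAMD9, GBP1 and IFI44). IFIT1 (chr10:89392373-89392672, plus strand) and IFIT3 (chr10:89327747-89328046, plus strand) are shown because each rose over 2-fold and holds 2 matches, all on the opposite strand, in capitals.
IFIT1: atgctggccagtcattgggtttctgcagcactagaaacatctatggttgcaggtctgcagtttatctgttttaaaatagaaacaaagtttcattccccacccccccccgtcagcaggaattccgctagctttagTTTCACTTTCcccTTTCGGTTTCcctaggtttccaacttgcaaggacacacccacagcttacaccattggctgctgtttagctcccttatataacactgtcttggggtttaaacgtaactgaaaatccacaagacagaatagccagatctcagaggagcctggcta
IFIT3: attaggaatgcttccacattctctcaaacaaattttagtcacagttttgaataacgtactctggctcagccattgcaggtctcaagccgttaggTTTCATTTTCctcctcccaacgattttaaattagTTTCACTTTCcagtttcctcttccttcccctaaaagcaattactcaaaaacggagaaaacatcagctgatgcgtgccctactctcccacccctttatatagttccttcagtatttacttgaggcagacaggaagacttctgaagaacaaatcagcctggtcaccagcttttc

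Enterocyte genes rose in 7 of 17 tested members of 33 listed and fell in none, with a median of 0.40. The other 16 were not tested. SLC26A3 (ENSG00000091138, chromosome 7, 107765467 to 107803225, minus strand), the chloride and bicarbonate exchanger of colonocytes, was 18.9 CPM in CSOX9, 10.6 in M228, 9.52 in M303, 6.58 in M379 and 20.1 in GFP in replicate 1, against a lowest value of 2.26, a median of 4.68 and a highest of 14.5 CPM in replicates 2 and 3. Replicate 1 was the highest of its construct in each case, although CSOX9 replicate 2 was above 3 replicate 1 libraries of other constructs (1.30 ± 0.19, edgeR adjusted p = 0.000837). DPP4, a brush border peptidase, rose by 0.48, CA2, carbonic anhydrase 2, by 0.45, SI, sucrase-isomaltase, by 0.76 and ANPEP, aminopeptidase N, by 1.13. SI was at 1.22 to 4.87 CPM in replicate 1, against 0.428 to 3.77 CPM in replicates 2 and 3. The enterocyte count was 3 without M303 replicate 1 and 11 without GFP replicate 2, and none was called when replicate 1 was set against replicate 2 alone.

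Intestinal transcription factors rose in 6 of 17 tested members of 19 listed and fell in none, with a median of 0.22. CDX2 (ENSG00000165556, chromosome 13, 27960918 to 27969315, minus strand), which specifies intestinal fate, was 365 CPM in CSOX9, 337 in M228, 441 in M303, 382 in M379 and 379.5 in GFP in replicate 1, against a lowest value of 227, a median of 272 and a highest of 393 CPM in replicates 2 and 3. The overlap came from GFP replicate 2, the highest of the 10 others (0.46 ± 0.10, edgeR adjusted p = 0.00823). ISX, an intestine-specific homeobox factor, was 2.97 CPM in CSOX9, 8.91 in M228, 21.2 in M303, 6.91 in M379 and 18.6 in GFP in replicate 1, against a lowest value of 1.35, a median of 2.42 and a highest of 4.30 CPM in replicates 2 and 3, with CSOX9 replicate 1 inside the range of its own construct and the other 4 above all 10 (2.09 ± 0.37, edgeR adjusted p = 0.00227). ELF3, an epithelial ETS factor, rose by 0.47. The count was 3 without M303 replicate 1 and 11 without GFP replicate 2.

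Goblet cell genes rose in 4 of 11 tested members of 18 listed, BCAS1 by 1.21, CREB3L1, a secretory pathway transcription factor, by 0.62, TFF3, a trefoil peptide, by 0.87 and GALNT12, a mucin glycosyltransferase with 21% of exon bases overlapping an opposite-strand gene, by 0.23. That count was 2 without any 1 library of CSOX9 or M303, GFP replicate 1, M228 replicate 1 or 3, or M379 replicate 3. TFF3 and GALNT12 each lost their call in 19 of 34 settings, and BCAS1 and CREB3L1 in none. Crypt stem cell genes rose in 4 of 18 tested members of 20 listed and fell in 1. PROM1, a membrane glycoprotein of progenitor cells, was 120.4 CPM in CSOX9, 61.3 in M228, 59.6 in M303, 60.7 in M379 and 91.8 in GFP in replicate 1, against a lowest value of 34.1, a median of 45.2 and a highest of 77.6 CPM in replicates 2 and 3, the highest of its construct in all 5 and overlapping across constructs (0.67 ± 0.09, edgeR adjusted p = 0.000378). SLC12A2, a chloride cotransporter, rose by 0.60, and the WNT targets AXIN2 by 0.22 and RNF43 by 0.25, while CD44 fell by 0.37. Of 34 settings RNF43 lost its call in 21, AXIN2 in 11, and SLC12A2 and CD44 in 10 each. The stem cell count was 1 higher without the replicate 1 library of GFP, M228, M303 or M379, and 2 higher without M228 replicate 3 or M303 replicate 3. Of 6 Paneth cell genes tested of 12 listed, LYZ and NUPR1 rose and MMP7 fell. LYZ, lysozyme, was 1013 to 3543 CPM in replicate 1, against 636 to 2866 CPM in replicates 2 and 3 (0.56 ± 0.09, edgeR adjusted p = 0.00109), with 35% of its exon bases overlapping an opposite-strand gene, and NUPR1 stayed under 1 CPM in every library.

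The highest named differences were spread over several functions. ADH1C (ENSG00000248144, chromosome 4, 99336497 to 99352746, minus strand), a class I alcohol dehydrogenase that also oxidises retinol, was 11.7 CPM in CSOX9, 4.74 in M228, 15.8 in M303, 6.11 in M379 and 13.1 in GFP in replicate 1, against a lowest value of 1.13, a median of 1.75 and a highest of 5.29 CPM in replicates 2 and 3. Only CSOX9 replicate 2 was above any replicate 1 library, that of M228, and the difference was 2.31 ± 0.22 (edgeR adjusted p = 9.19e-05). DHRS3, which reduces retinaldehyde, rose by 1.32 with no overlap. BMF (ENSG00000104081, chromosome 15, 40087890 to 40108892, minus strand), a pro-apoptotic BH3-only protein, was 4.96 CPM in CSOX9, 5.45 in M228, 5.55 in M303, 3.56 in M379 and 6.99 in GFP in replicate 1, against a lowest value of 0.974, a median of 1.29 and a highest of 2.37 CPM in replicates 2 and 3, without overlap (1.83 ± 0.18, edgeR adjusted p = 9.39e-05). METTL7A, a methyltransferase-like protein, was 27.2 CPM in CSOX9, 24.0 in M228, 30.3 in M303, 31.8 in M379 and 43.2 in GFP in replicate 1, against a lowest value of 6.61, a median of 9.24 and a highest of 17.9 CPM in replicates 2 and 3, also without overlap (1.56 ± 0.16, edgeR adjusted p = 9.39e-05). NYNRIN rose by 1.77, TCP11L2 by 1.51, PRUNE2 by 1.49, APOBR, an apolipoprotein B receptor, by 1.41, and CHP2, a calcineurin B homologue, by 1.34. The spliceosomal RNA gene RNU4-2 rose by 1.73 and the U3 gene SNORD3A by 1.47, both members of families with near-identical copies and without poly(A) tails, at 2.87 to 9.43 CPM in replicate 1, against 0.511 to 3.51 CPM in replicates 2 and 3 for RNU4-2.

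**Figure D5:**
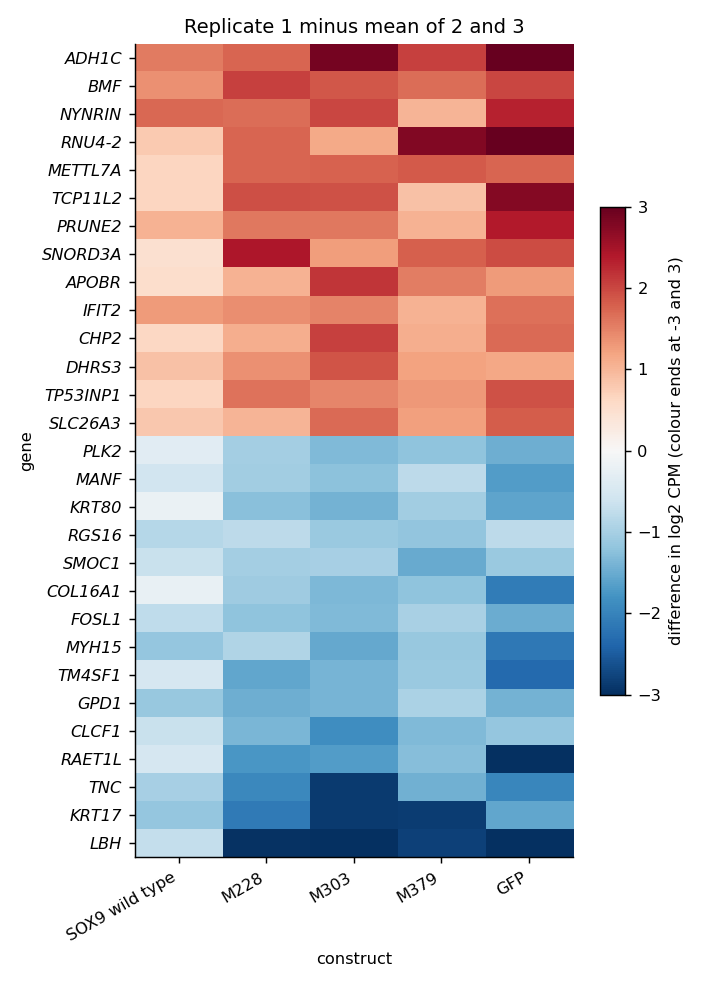
Difference in log2 CPM (replicate 1 minus the mean of replicates 2 and 3) for 14 of the 15 highest and the 15 lowest named genes by construct, red for higher and blue for lower, with colour ending at -3 and 3. Every cell of the upper 14 rows is positive and every cell of the lower 15 negative, as the choice of genes requires, and the CSOX9 column is the palest in most rows.

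Among p53 targets 5 of 19 tested members (26.3%) rose and 2 (10.5%) fell, beside 7.93% and 7.52% of all tested genes. TP53INP1 rose by 1.32, BBC3, which encodes PUMA, by 0.87 and BTG2 by 0.54, while PLK2 and AEN fell by 1.04 and 0.46. That count was 3 higher without the replicate 1 library of GFP, M303 or M379 and 8 without GFP replicate 2. Circadian clock genes rose in 4 of 18 tested members (22.2%) of 20 listed and fell in none, and the number stayed between 4 and 6 under each library left out. DBP, an output factor of the clock, was 7.05 CPM in CSOX9, 6.92 in M228, 9.05 in M303, 6.91 in M379 and 6.39 in GFP in replicate 1, against a lowest value of 2.33, a median of 3.03 and a highest of 5.45 CPM in replicates 2 and 3, without overlap (1.22 ± 0.18, edgeR adjusted p = 0.000968). BHLHE41 rose by 0.74 and BHLHE40 by 0.64. In iron metabolism 3 of 11 tested members (27.3%) rose and none fell. SLC40A1, the iron exporter ferroportin, was 91.5 CPM in CSOX9, 76.3 in M228, 99.6 in M303, 70.3 in M379 and 70.9 in GFP in replicate 1, against a lowest value of 21.6, a median of 35.7 and a highest of 74.5 CPM in replicates 2 and 3. Its overlap came from CSOX9 replicate 2 (1.15 ± 0.13, edgeR adjusted p = 0.000216), and CYBRD1, a ferric reductase, rose by 1.31 at low levels.

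Other lists had members in both directions, beside 7.93% of all tested genes called higher and 7.52% called lower. The shares higher and lower were 19.05% and 14.3% for WNT targets and 25% and 18.75% for BMP and TGF-beta response genes. For immediate early genes they were 15% and 20%. WNT targets had 4 of 21 higher and 3 lower, with TDGF1, a Nodal co-receptor, and SOX4, a progenitor transcription factor, up by 0.57 and 0.49, while the WNT inhibitor DKK1 fell by 0.89. With M303 replicate 3 or the replicate 1 library of GFP, M228, M303 or M379 left out, 2 were higher and 0 to 2 lower. BMP and TGF-beta response genes had 4 of 16 higher and 3 lower, with the inhibitors of differentiation ID3 and ID2 up by 0.89 and 0.39, while the ligand BMP4 fell by 0.35. That list had 1 to 4 higher and 1 lower without GFP replicate 1 or any 1 library of M228, M303 or M379, and 7 higher and 4 lower without GFP replicate 2. Immediate early genes had 3 of 20 higher and 4 lower, among them EGR1 up by 0.34 and NR4A1 down by 0.57. That list had 8 higher and 5 lower without GFP replicate 2, 5 and 4 without GFP replicate 3, 3 and 2 without GFP replicate 1, and 2 and 2 without the replicate 1 library of M228, M303 or M379.

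Lysosome and autophagy genes had 4 of 24 higher (16.7%) and 3 lower (12.5%), with GABARAPL1, an autophagosome protein, up by 0.99. They had 8 higher and 4 lower without GFP replicate 2, 2 and 3 without CSOX9 replicate 1, 3 and 1 without GFP replicate 1, 2 and 1 without M228 replicate 1, and 1 and 1 without M303 replicate 1. NRF2 targets had 4 of 19 lower (21.05%), GCLM, a subunit of the glutathione synthesis enzyme, by 0.38 among them. Their count was 8 lower and 1 higher without GFP replicate 2, 0 without M303 replicate 1, 1 without M228 replicate 1, and 2 without CSOX9 replicate 2, GFP replicate 1, replicate 2 or 3 of M228 or M303, or any library of M379. YAP and TEAD targets had 1 of 17 higher (5.88%) and 4 lower (23.5%), beside 7.93% and 7.52% of all tested genes, with 1 lower without M303 replicate 1. F3, tissue factor, fell by 0.82 and AJUBA by 0.41. Of 18 nuclear and long non-coding RNAs tested of 20 listed, 1 rose (5.56%) and 4 fell (22.2%). The fallers were SNHG12, SNHG15, SNHG1 and SNHG7, host genes of small nucleolar RNAs, by 0.66, 0.59, 0.43 and 0.37, and SNHG7 overlaps an opposite-strand gene over 30% of its exon bases.

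The remaining lists are read beside the 7.93% of all tested genes called higher and the 7.52% called lower. The integrated stress response had 2 of 23 higher and 2 lower, aminoacyl tRNA synthetases 2 of 13 lower, NF-kB targets 1 of 15 higher and 2 lower, splicing factors 2 of 20 lower and the Notch pathway 1 of 14 lower. Junction genes had 1 of 21 higher and 2 lower, and glucocorticoid response genes 2 of 10 in each direction. With 1 library left out at a time, the integrated stress response had 1 to 8 higher and 2 to 6 lower. The synthetases then had 0 to 2 and 1 to 2, NF-kB targets 0 to 2 and 1 to 3, and splicing factors 0 to 2 and 0 to 7. The Notch pathway had 0 to 3 and 0 to 1, junction genes 0 to 5 and 0 to 2, and glucocorticoid response genes 1 to 3 and 1 to 4. Collagens, laminins and integrins had 1 of 28 higher and 3 lower, with 4 higher and 6 lower without GFP replicate 2, 1 and 1 without M228 replicate 1, and 0 and 1 without M303 replicate 1. Of 7 tested SOX family genes, SOX4 and SOX6 rose. None of 5 tested enteroendocrine genes of 20 listed was called, and 1 of 5 tuft cell genes, ALOX5, rose by 0.50.

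Properties of whole libraries moved with replicate number 1. The 10 highest genes took 5.43% to 7.59% of counts in replicate 1, against 8.0% to 10.7% in replicates 2 and 3, lower than both others in all 5 constructs (exact permutation within constructs, two-sided p = 0.00412, the smallest that this design can give, adjusted p = 0.0185 over 9 measures). The TMM scaling factor was 1.03 to 1.08 in replicate 1, against 0.929 to 0.992 in replicates 2 and 3 (same test, exact permutation p = 0.00412). After thinning to 3054755 reads, 19424 to 19698 genes had a read in replicate 1, against 18851 to 19569 in replicates 2 and 3 (exact permutation p = 0.0165, adjusted p = 0.0296). Total counts (exact permutation p = 0.811) and the share of ribosomal protein genes (exact permutation p = 0.979) were not past the threshold. Because counts are relative, scaling bears on the balance of directions: with library totals alone 2220 genes were higher and 589 lower, with the median gene shifted by 0.10 on the log2 scale. Under that scaling the members called lower were 12 of 20 for the unfolded protein response, 9 of 14 for heat shock, 5 of 25 for the proteasome and 7 of 22 for ribosome biogenesis, and the members called higher 16 of 24 for cholesterol synthesis and 15 of 30 for interferon. DNA replication then had 1 lower and 1 higher of 24. The list of MYC with polyamine and nucleotide synthesis genes had 4 lower and 1 higher of 12, and the higher member was MYC. MAPK output had 3 lower and 2 higher of 19. Against replicate 2 alone, with 261 genes called in all, the members called lower were 7 of 20 for the unfolded protein response and 3 of 14 for heat shock, and those called higher 6 of 24 for cholesterol synthesis, 6 of 30 for interferon and 1 of 17 for intestinal transcription factors.

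Gene properties differed between the genes called higher and lower. Genes were split into 3 equal classes by each property. Genes called higher made up 10.2% of the class with the longest exon sequence and 4.36% of the shortest class, and genes called lower 5.10% of the longest and 7.80% of the shortest. In the class of highest GC percent 7.40% were higher and 10.9% lower, and in the lowest class 8.11% higher and 4.20% lower. In the class of highest level 5.16% were higher and 13.4% lower. Across genes, which are not independent replicates, the log2 difference had a Spearman rho of 0.20 with exon length and -0.20 with GC percent. The length slope of the libraries themselves (exact permutation p = 0.259) and their GC slope (exact permutation p = 0.284) were not past the threshold. With offsets for exon length 2992 genes were called, 2314 of them among the 2496 and in the same direction, and with offsets for GC percent 3158, of which 2332 were. What part length, GC and the share of the highest genes have in the gene lists was not tested beyond these counts.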

How the data were processed

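RNA-seq read counts per gene were measured in 15 libraries of HT115 cells. The authors' deposited raw counts, whole numbers per Ensembl gene, come from an hg38 alignment by STAR 2.7.0a (named in the submitters' processing notes), counted with featureCounts 2.0.1 on Ensembl release 101, per the file headers. The recorded command has no strand or paired-end option, so reads on overlapping genes cannot be assigned by strand and mates may have been counted separately. A deposited normalized table was not used, and 3 of its columns match no label.

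Counts were tested with edgeR 4.0.16 (R 4.3.3; quasi-likelihood, TMM scaling, low counts filtered by construct, construct plus replicate 1, Benjamini-Hochberg over 16160 genes). CPM are TMM-scaled, except for the cell type marker sums, the marker limit of 1 CPM and the floors, which use library totals. SE is the log2 difference divided by the square root of F. Library measures used exact permutation within constructs (243 arrangements). Floors and p-values cover counting error and the spread of these libraries. Scripts were tested on simulated data. DESeq2 1.42.0, other scalings, filters, offsets and left-out libraries were alternatives. A gene name table gave symbols for 42020 of 60671 genes. GC percent came from GENCODE 29, and positions from the count table.

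Genes named are SOX9, the 15 highest and 15 lowest called genes with log2 CPM of at least 1 and 1 direction in all 5 constructs, up to 5 called members per list by p, and 6 markers. CRELD2, CHORDC1, HSPA1A, the 10 genes that differed between replicates 2 and 3, and interferon genes named for a promoter match were chosen after their values were seen. The members and lists were chosen with earlier results of these data known. A few named genes are not reported here.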

Additional observations from a re-analysis of the deposited data

Results flagged for a closer look

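Each named gene's difference between replicate 1 and the mean of replicates 2 and 3 was compared over the 5 constructs, and in 13 of 207 genes the lowest or highest construct stood far from the others. Chance alone is expected to flag about 1 in 20 groups of 5. The construct apart was GFP in 7 of the 13 genes. On the log2 scale the GFP differences were 1.19 for the cotransporter SLC12A2, 0.337 for the protease MMP14, -0.505 for the proteasome ATPase PSMC6, -0.713 for the annexin ANXA1, -1.14 for KRT8, -1.42 for KRT18 and -1.15 for the calcium-binding protein S100A4. CSOX9 was apart with 0.655 for METTL7A, 0.332 for ID3 and -2.14 for ANXA10. M303 was apart with 0.928 for PCK2, a mitochondrial gluconeogenesis enzyme, and 0.757 for TSC22D3, a glucocorticoid-induced leucine zipper gene. M228 was apart with -0.221 for GCLM.

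Among library measures, M379 replicate 1 had fewer genes detected after thinning (19424, or 19400 when rounded) than the other 4 replicate 1 libraries. GFP replicate 2 stood apart from the other replicate 2 and 3 libraries with 4.85% of counts in ribosomal protein genes, a TMM factor of 0.929, a slope of log2 CPM on log2 exon length of -0.239 and a slope of 0.315 per 10 points of GC percent. In the length slope the difference between replicate 1 and the other 2 libraries was 0.186 in GFP, the highest of the 5 constructs.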

How the results depend on the processing

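No paired analysis was possible because the replicate number is itself the factor compared, and construct was the block. Library totals alone as scaling gave 2220 genes higher and 589 lower. Replicate 1 against replicate 2 alone gave 261 (165 higher, 96 lower), and against replicate 3 alone 5453 (2832 higher, 2621 lower). limma with voom and library weights gave 6336 (3237 higher, 3099 lower), and counts thinned to 3054755 reads 1372 (705 higher, 667 lower). Without M228 950 genes were called (572 higher, 378 lower), without M303 627 (248 lower and the other 3.8e2 higher), without M379 1108 (684 higher, 424 lower) and without GFP 4631 (2473 higher, 2158 lower). Leaving out 1 library at a time gave 890 (without M303 replicate 1) to 5359 (without GFP replicate 2), with 498 to 2805 higher and 392 to 2554 lower. It was 1127 without M228 replicate 1, 1420 without M379 replicate 1 and 1401 without GFP replicate 1. DESeq2 called 3092 (1530 higher, 1562 lower). With no filter on low counts 1707 were higher and 1061 lower, which is 61.7% higher against 51.3% with it, and 79.0% with library totals alone. The 10 calls between replicates 2 and 3 became 132 with DESeq2, 603 with no filter and 1 after thinning, and 0 to 111 with 1 library left out. The 0 calls for a difference that varied between constructs became 4 with DESeq2, 19 with no filter and 22 without GFP. The mitochondrial share differed by -1.07 percentage points without GFP (exact permutation p = 0.0617). Of the 207 named genes, no gene called in the main test or in a setting changed sign in any of the 34 settings where it was tested. Thinning left 199 of them tested. MYC alone among them gained a call, with library totals alone and against replicate 3 alone. SOX9, LGR5 and MKI67, never called, did change sign, with ranges of -0.206 to 0.00128, -0.038 to 0.447 and -0.00676 to 0.334. The call was lost by 129 genes against replicate 2 alone, 78 without M303, 65 without M303 replicate 1, 54 without M228, 48 without M228 replicate 1 and 0 to 47 under each other setting. The causes of these moves were not tested. GFP replicate 1, with 3054755 reads, limits precision for low genes. The GC offsets and the counts of list members with a library left out were chosen after seeing the data.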
